A study of Mus musculus with 47 samples.

Results

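The 10 genes described here encode the carnitine shuttle and the core enzymes of mitochondrial fatty acid beta-oxidation: Cpt1a, Cpt1b, Cpt2, Slc25a20, Acadvl, Acadl, Acadm, Acads, Hadha and Hadhb. They were taken by symbol from the 26583 gene symbols that the count tables of 4 tissues share, and all 10 were found. The animals were 12 male C57BL/6J mice, an inbred strain with no further allele named, that started at 5 weeks of age on a Control diet (CON, 6 mice) or a Methionine Restriction diet (MR, 6 mice) and stayed on it for 11 weeks. All mice lived at 23 C, and a 5 h fast preceded collection. The tissues were white fat from the inguinal depot (IWAT), brown fat from the interscapular depot (BAT), liver, and the gastrocnemius, a calf muscle. How much methionine each diet held is not stated in the labels. Each tissue gave 6 CON and 6 MR libraries, 1 per mouse and named by diet and animal number, except gastrocnemius, where 5 MR mice were analysed. This makes 47 libraries in 8 groups. The study examined how the diets affect transcription across these tissues, and the question here is where the oxidation genes were expressed and whether MR moved them.

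Long-chain fatty acids cannot cross the inner mitochondrial membrane as CoA esters. Carnitine palmitoyltransferase 1 on the outer membrane (the liver form Cpt1a and the muscle form Cpt1b, which brown fat also uses) makes acylcarnitines, the translocase Slc25a20 carries them inwards, and Cpt2 returns the acyl group to CoA. The dehydrogenases Acadvl, Acadl, Acadm and Acads then start each round of chain shortening for very long, long, medium and short chains. Hadha and Hadhb are the subunits of the trifunctional protein, which completes the round for long chains. Brown fat burns fatty acids for heat, liver for energy and ketone bodies and muscle for contraction, whereas white fat mainly stores them.

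Each library counted short tags that start at the NlaIII site (CATG) nearest the 3′ end of a transcript, so a value stands for 1 site per transcript and levels are compared only within a gene. Predicted tags from GENCODE vM1 transcripts are shown for 7 members because 4 libraries divided the genes by the base composition of this stretch. Capitals mark the CATG site, followed 5′ to 3′ by up to 23 bases.
Acads: CATGagccctcggaggcaagaacacaa
Hadha: CATGgcctttcacagaaagaatcagcc
Cpt2: CATGtagctggaaggtaccatcttgtc
Slc25a20: CATGagagcactcagttttaacaggaa
Acadm: CATGattctaacataaacactgaaaat
Acadl: CATGtgtagaccgtg
Hadhb: CATGtattagagg
Of the 23 positions after the site, 13 were G or C in Acads, 11 in Hadha and Cpt2, 9 in Slc25a20 and 5 in Acadm. The annotated Acadl and Hadhb transcripts end 11 and 9 bases after the site, and with the rest counted as A of the tail they held 6 and 3. Acadvl held 12, Cpt1a 9 and Cpt1b 7. For all 10 genes the site lay in the 3′ UTR. Among protein-coding transcripts 0 other genes had the same predicted tag as a member with all 23 bases. The shorter Acadl and Hadhb tags could not equal a full tag, so for them this comparison decides nothing.

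In RefSeq on GRCm38.p6 the shuttle genes lie at chr19:3322326-3385735 (Cpt1a), chr15:89416405-89425862 (Cpt1b), chr4:107903982-107923589 (Cpt2) and chr9:108662136-108684642 (Slc25a20). The dehydrogenase genes lie at chr11:70010183-70015428 (Acadvl), chr1:66830839-66863309 (Acadl), chr3:153922353-153944643 (Acadm) and chr5:115110299-115119346 (Acads). Hadha (chr5:30119423-30154980) and Hadhb (chr5:30155253-30184593) are neighbours transcribed away from each other, with start sites 273 bases apart.

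Library totals ran from 4887004 to 13117537 tags, and levels are given as CPM, the tags of a gene scaled to a common library total with 1 set of TMM factors for all 47 libraries. A count of 0 allowed up to 0.188 to 0.62 CPM by library (3 tags on the same scale), counting error only. Libraries IWAT CON3106, CON3115 and MR3116 and gastrocnemius MR3101 stood apart: the Spearman correlation with libraries of their own tissue had a median of 0.628, 0.719, 0.647 and 0.582, against at least 0.857 in the other IWAT and 0.928 in the other gastrocnemius libraries. The tissues carried their defining markers. Summed CPM of 8 hepatocyte markers was 100159 to 312534 in liver, that of 10 muscle fibre markers 31371 to 221783 in gastrocnemius, and that of 7 adipocyte markers 20972 to 90973 in IWAT and 18136 to 39672 in BAT. Ucp1, the uncoupling protein of brown fat, averaged 2551 ± 737 CPM in BAT and 143 ± 152 CPM in IWAT of CON mice (SD, n = 6). Markers of other tissues were present in some fat libraries: muscle fibre sums were 107 to 18872 CPM in CON BAT and 384 to 7855 in MR BAT, hepatocyte sums reached 3065 in BAT and 8661 in IWAT, and lymphocyte sums reached 1874 in IWAT.

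Under the control diet, BAT held the highest mean of 9 members and liver the highest of Cpt1a. Cpt1a ran from 184 to 464 CPM (median 369) in liver, from 38.9 to 89.6 (median 55.5) in IWAT, from 7.85 to 28.3 (median 15.2) in BAT and from 9.35 to 24.0 (median 14.5) in gastrocnemius. Liver lay above IWAT and IWAT above BAT without overlap (adjusted p 2.06e-07 and 9.11e-05, edgeR quasi-likelihood test), whereas BAT and gastrocnemius did not differ beyond their spread (adjusted p = 0.822). Cpt1b was distributed the other way. It ran from 1.61 to 5.07 CPM in BAT and from 1.56 to 5.40 in gastrocnemius, which did not differ beyond their spread (adjusted p = 0.877; the part of muscle RNA in BAT was not tested), and reached at most 1.82 CPM in IWAT, with 3 of 6 libraries at 0. In CON liver Cpt1b was seen as 1 tag in 1 of 6 libraries.

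The inner-membrane and matrix steps were highest in BAT. Acadvl ran from 1389 to 2428 CPM (median 2057) in BAT, from 391 to 510.2 (median 451) in liver, from 247 to 420.1 (median 354) in gastrocnemius and from 74.1 to 644 (median 203) in IWAT. BAT did not overlap any other tissue, and the other tissues were not separated from their neighbours in that order (adjusted p 0.309 and 0.401). Hadhb ran from 30.1 to 53.4 CPM in BAT against 2.54 to 11.0 in IWAT, 3.40 to 5.08 in gastrocnemius and 1.14 to 4.36 in liver, and only BAT was free of overlap with every other tissue. IWAT exceeded liver for Hadhb in the test (log2 0.88 ± 0.32, adjusted p = 0.0202). For Acads the lead of BAT (169 to 421 CPM) over liver (71.8 to 131) did not pass (adjusted p = 0.189). For Cpt2, Slc25a20, Acadl, Acadm and Hadha the step from BAT to the second tissue passed, with adjusted p from 1.09e-06 to 0.00938. The second place went to liver for Cpt2 and Slc25a20, to IWAT for Acadl and Acadm, and to gastrocnemius for Hadha, and none of these differed from the third tissue (adjusted p from 0.0891 to 0.642).

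All 10 members differed between control BAT and IWAT in the fit of 47 libraries, 9 higher in BAT and Cpt1a higher in IWAT, where 33.4% of 13541 genes differed. For those 9 the log2 difference IWAT minus BAT ran from -1.26 ± 0.38 for Acadm to -3.004 ± 0.76 for Hadha (SE), and for Cpt1a it was 1.89 ± 0.36. Over all 6 pairs of tissues 37 of 60 tests passed, where 46.9% of all gene by pair tests did. BAT differed from liver in 9 members (47.9% of genes) and from gastrocnemius in 8 (40.9%). The remaining pairs passed for 4 members (IWAT and liver, 49.7% of genes), 2 (IWAT and gastrocnemius, 52.5%) and 4 (liver and gastrocnemius, 56.8%). Acadm between IWAT and BAT was lost without mouse CON3107 (adjusted p = 0.0825) and Acads without CON3115 (0.0648). Between IWAT and liver, Acadl was lost without CON3114 or CON3115 (up to 0.105) and Hadhb without CON3103, CON3106 or CON3114 (up to 0.192). Between liver and gastrocnemius, Slc25a20 was lost without CON3106, CON3114 or CON3115 (up to 0.0890) and with library-size scaling (0.0660), and Acads without CON3107, CON3114 or CON3115 (up to 0.0838) and with that scaling (0.0872). The total ran from 34 to 38 leaving out 1 animal, where the share over all genes was not counted. Scaling by library size alone moved the median difference of all genes by up to 0.78 (IWAT against liver) and reversed no member's called difference.

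**Figure D1:**
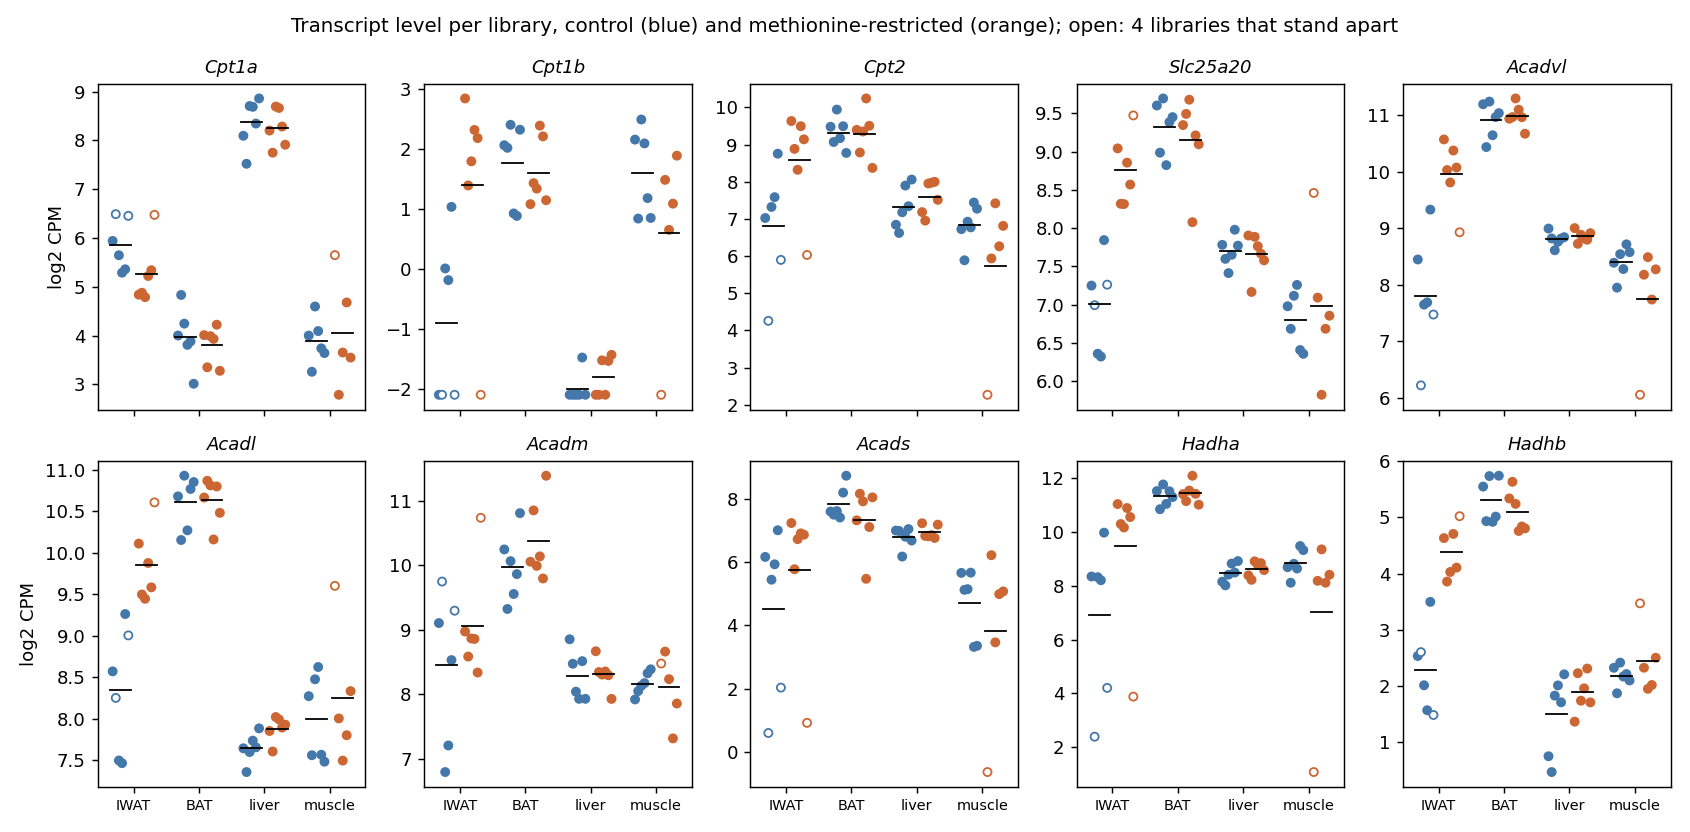
Level of each member in every library, on a log2 CPM axis of its own for each gene, by tissue and diet (blue CON, orange MR). Bars are group means and open points the 4 libraries that stand apart. Under CON the mean of Cpt1a is highest in liver and those of the others in BAT, and in IWAT the MR points of Slc25a20, Acadl and Hadhb lie wholly above the CON points.

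In IWAT, 9 of 10 members had higher fitted levels under MR, with a median log2 fold change of 1.62 against -0.02 over 11101 genes. No member passed the test adjusted over all genes (0 of 10), where 0.00901% of genes were called higher and 0.018% lower. At an unadjusted p under 0.05, 6 of 10 members were higher, where 3.94% of genes were. Slc25a20, Acadl and Hadhb did not overlap between the diets (3 of 10, where 0.803% of genes were higher without overlap). In tissue RNA, more cells of a type and more RNA per cell cannot be told apart.

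At the shuttle, the translocase Slc25a20 ran from 79.8 to 229 CPM (median 139.6) in CON and from 318 to 709.6 (median 421) in MR. Every MR library lay above every CON library, at 3.28-fold on average (log2 1.72 ± 0.33, adjusted p = 0.0887, edgeR). Cpt2, the matrix transferase, ran from 18.9 to 432 CPM (median 145) in CON and from 65.1 to 795 (median 519) in MR, which overlapped (log2 1.53 ± 0.67, adjusted p = 0.518). The muscle form Cpt1b had 0 to 15 tags in CON and 0 to 47 in MR, or 0 to 1.82 CPM (median 0.323) against 0 to 6.96 (median 3.78). Its 5 MR libraries with tags all exceeded CON, and the sixth, MR3116, had none (log2 2.64 ± 1.02, adjusted p = 0.406). The liver form Cpt1a went the other way, with 38.9 to 89.6 CPM (median 55.5) in CON and 27.4 to 88.7 (median 33.2) in MR. Of 6 MR libraries 5 lay below the CON mean (log2 -0.56 ± 0.37, adjusted p = 0.836).

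Among the dehydrogenases, Acadvl ran from 74.1 to 644 CPM (median 203) in CON and from 487 to 1525 (median 1063) in MR. The diets overlapped through CON3114 and MR3116 (log2 1.92 ± 0.45, adjusted p = 0.153). Acadl ran from 176 to 614 CPM (median 342) in CON and from 697 to 1560.2 (median 854) in MR, without overlap (log2 1.42 ± 0.37, adjusted p = 0.166). The medium-chain gene Acadm overlapped almost wholly, at 111 to 858 CPM in CON and 323 to 1702 in MR (log2 0.54 ± 0.57, adjusted p = 1.00). Its log2 difference was -0.19 without MR3116 alone and 0.47 ± 0.43 without CON3106, CON3115 and MR3116 together. With all libraries kept and a term for these 3 it was 0.69 ± 0.34. Neither of the last values passed (adjusted p 0.700 and 0.274, edgeR). Short-chain Acads ran from 1.29 to 128 CPM in CON and from 1.67 to 149.6 in MR (log2 0.79 ± 0.95, adjusted p = 1.00).

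Both trifunctional subunits were higher in most MR libraries. Hadhb ran from 2.54 to 11.0 CPM (median 4.66) in CON and from 14.2 to 32.3 (median 20.8) in MR, without overlap, at 4.09-fold (log2 2.03 ± 0.41, adjusted p = 0.106). Hadha ran from 5.01 to 1004 CPM (median 306) in CON and from 14.5 to 2096 (median 1377) in MR (log2 1.97 ± 1.07, adjusted p = 0.716). Its 5 MR libraries other than MR3116 lay at 1147 CPM or more, above every CON library. CON3114 was the highest CON library for Cpt1b, Cpt2, Slc25a20, Acadvl, Acadl, Acads, Hadha and Hadhb. Without it Slc25a20, Acadvl and Hadhb passed (adjusted p 0.0477, 0.0437 and 0.0399, where 0.248% of genes were called higher).

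**Figure D2:**
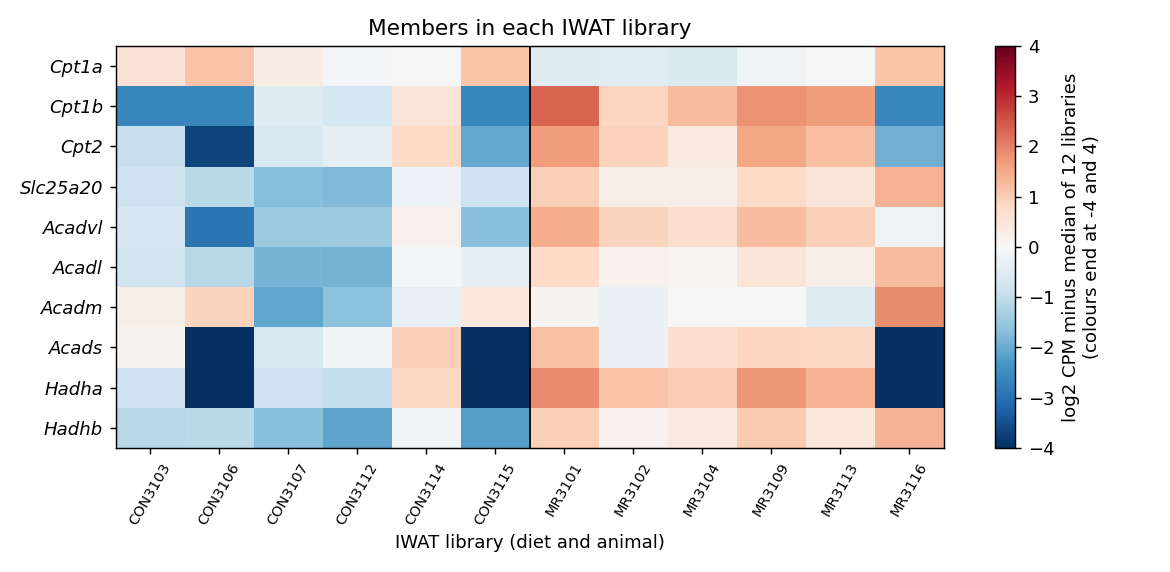
Each member (rows) in each IWAT library (columns, CON left of the line and MR right), coloured by log2 CPM minus the gene's median over 12 libraries. MR columns are mostly red except for Cpt1a and Acadm, and CON3106, CON3115 and MR3116 are dark blue for Acads and Hadha whatever the diet.

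The 3 IWAT libraries that stand apart touched the members unequally. Hadha was at 5.01, 18.2 and 14.5 CPM in CON3106, CON3115 and MR3116 and Acads at 1.29, 3.88 and 1.67 CPM, below every other IWAT library. Acadm and Cpt1a were high in the same libraries, with Acadm at 858, 628 and 1702 CPM and Cpt1a at 89.6, 87.5 and 88.7 CPM. Relative to the other libraries of the tissue and diet, Acads, Hadha, Cpt2 and Acadvl, with 11 or more G or C in the predicted tag, were shifted by -0.81 (Acadvl in CON3115) to -6.71 (Hadha in MR3116) on the log2 scale. Of the 6 members with 9 or fewer, Acadm, Acadl, Slc25a20 and Cpt1a were higher by 0.05 to 2.01, and Hadhb lay between -0.92 and 0.76. Cpt1b, with 7 G or C, was shifted downwards instead. It had no tag in any of the 3, at -1.79 in CON3106 and CON3115 and -4.21 in MR3116. The other MR libraries of IWAT had 20 to 47 tags of Cpt1b. In gastrocnemius MR3101 its shift was -3.38. Over 12515 genes with a predicted tag the same division appeared, with a median shift in CON3106 of 0.32 for 6064 genes with 9 or fewer and -1.63 for 5235 genes with 11 or more. For the pair of classes these medians were 0.36 and -1.07 in CON3115, 0.21 and -1.85 in MR3116 and 0.22 and -2.09 in gastrocnemius MR3101. The part of base composition in the diet differences was not tested.

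**Figure D3:**
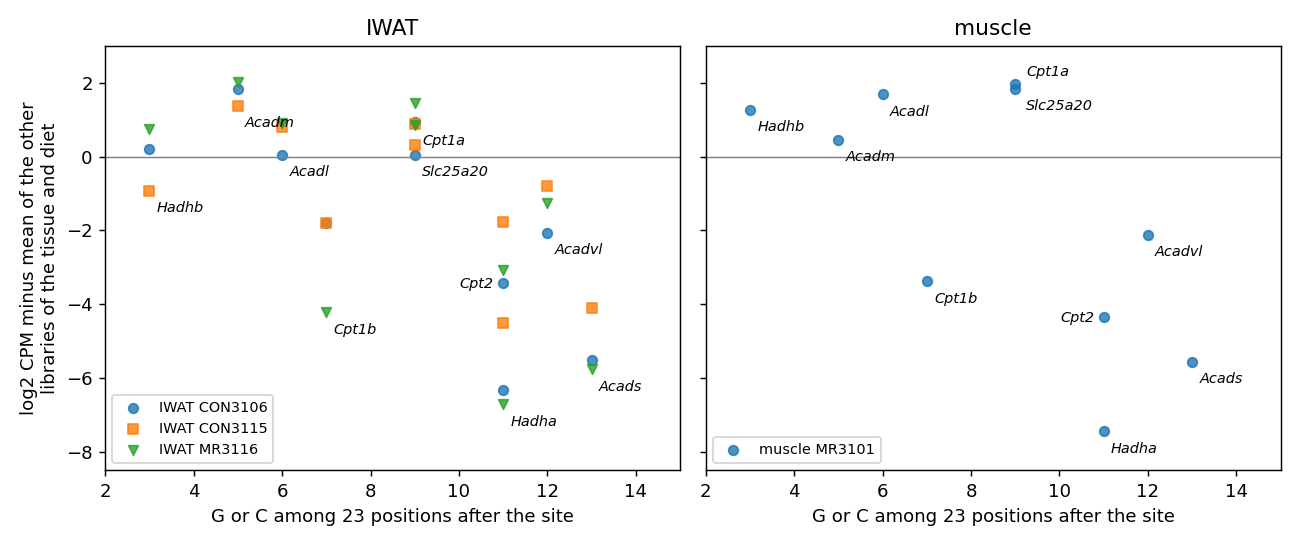
Shift of each member in the 4 libraries that stand apart, as log2 CPM minus the mean of the other libraries of that tissue and diet, against the number of G or C among 23 positions after the site. The 4 members with 11 or more lie below 0 in every one of these libraries, down to -7.44 for Hadha in gastrocnemius MR3101.

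Without those 3 IWAT libraries, 0 of 10 members passed, as did 0 of 11624 genes. At an unadjusted p under 0.05, 7 members were higher (7.1% of genes) and Cpt1a was lower (8.61% of genes). Cpt1b, Slc25a20, Acadvl, Acadl, Hadha and Hadhb then did not overlap between the diets (6 of 10, where 4.34% of genes were higher without overlap). Hadha ran from 294 to 1004 CPM in the 4 remaining CON libraries and from 1147 to 2096 in the 5 MR libraries. With all libraries kept and a term for these 3, 4 members rose, where 2.84% of genes did: Slc25a20 by log2 1.74 ± 0.28 (adjusted p = 0.00652), Acadvl by 1.80 ± 0.31 (0.00994), Acadl by 1.47 ± 0.31 (0.0178) and Hadhb by 2.04 ± 0.37 (0.0116). DESeq2 called the same 4 (1.51% of genes higher) and limma voom 0. In the fit of 47 libraries Cpt1b passed as well, making 5 (1.96% of genes higher).

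In BAT no member was called. The edgeR test called 0 of 10 (0.575% of genes were called higher and 0.537% lower), 0 had an unadjusted p under 0.05 (7.26% of genes were higher at that level and 6.33% lower), and DESeq2 and limma voom called 0. Log2 fold changes lay between -0.38 (Acads) and 0.42 (Acadm), with a median of -0.07. Acadvl ran from 1389 to 2428 CPM (median 2057) in CON and from 1636 to 2523 (median 2005) in MR, and Hadha from 1836 to 3473 (median 2711) and from 2063 to 4350.2 (median 2717). The diets overlapped for all 10 (1.07% of genes were higher in MR without overlap and 0.826% lower). Acadvl moved by log2 0.04 ± 0.16 and Acadl by less than 0.01 ± 0.17. Cpt1b, at 1.61 to 5.07 CPM in CON and 1.88 to 5.02 in MR, moved by -0.22 ± 0.35. Library MR3109 had the highest Cpt2 and Hadha of BAT (1211 and 4350.2 CPM) and the lowest Slc25a20 (270.0 CPM) and Acads (44.1 CPM).

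In liver 9 members were tested, since Cpt1b had 1 tag in CON and 1 tag in each of 3 MR libraries. The edgeR test called 0 of 9 (1.05% of genes were called higher and 1.21% lower), and DESeq2 and limma voom called 0. Acadl alone had an unadjusted p under 0.05, in the direction of higher levels in MR (6.77% of genes). It ran from 164 to 236 CPM (median 201) in CON and from 195 to 259.5 (median 240.5) in MR, with 5 of 6 MR libraries above the CON mean (log2 0.25 ± 0.10, adjusted p = 0.262). Cpt1a ran from 184 to 464 CPM (median 369) in CON and from 215 to 414 (median 303) in MR, a log2 difference of -0.13 ± 0.21. Slc25a20 differed by -0.01 ± 0.12 and Hadhb, with the largest SE of the 9 in liver, by 0.33 ± 0.30.

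In gastrocnemius 0 of 10 members passed, as did 0 of 11225 genes, and 0 members had an unadjusted p under 0.05 (5.63% of genes were higher at that level and 0.686% lower). DESeq2 and limma voom called 0 members. Hadha was at 1.87, 289.9, 653, 276 and 339 CPM in MR3101, MR3102, MR3104, MR3109 and MR3116 and ran from 276 to 711 CPM (median 431) in CON. Acadl was at 777, 257, 180.2, 223 and 322 CPM in the same libraries and ran from 179 to 394 (median 249) in CON. MR3101 was the lowest of all 11 libraries for Hadha and the highest for Acadl. Log2 differences were -0.59 ± 0.77 for Hadha and 0.44 ± 0.42 for Acadl, and without MR3101 Acadl was at -0.09, Slc25a20 at -0.11 (0.48 with it), Cpt1a at -0.03 (0.55 with it) and Acadm at -0.04 (0.05 with it). A second set of libraries of both diets went together: CON3114, CON3115 and MR3104 had Hadha at 711, 639.5 and 653 CPM and Acads at 9.77, 10.01 and 10.8 CPM, against 276 to 449.7 and 31.5 to 74.0 CPM in the other 7 libraries beside MR3101.

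**Figure D4:**
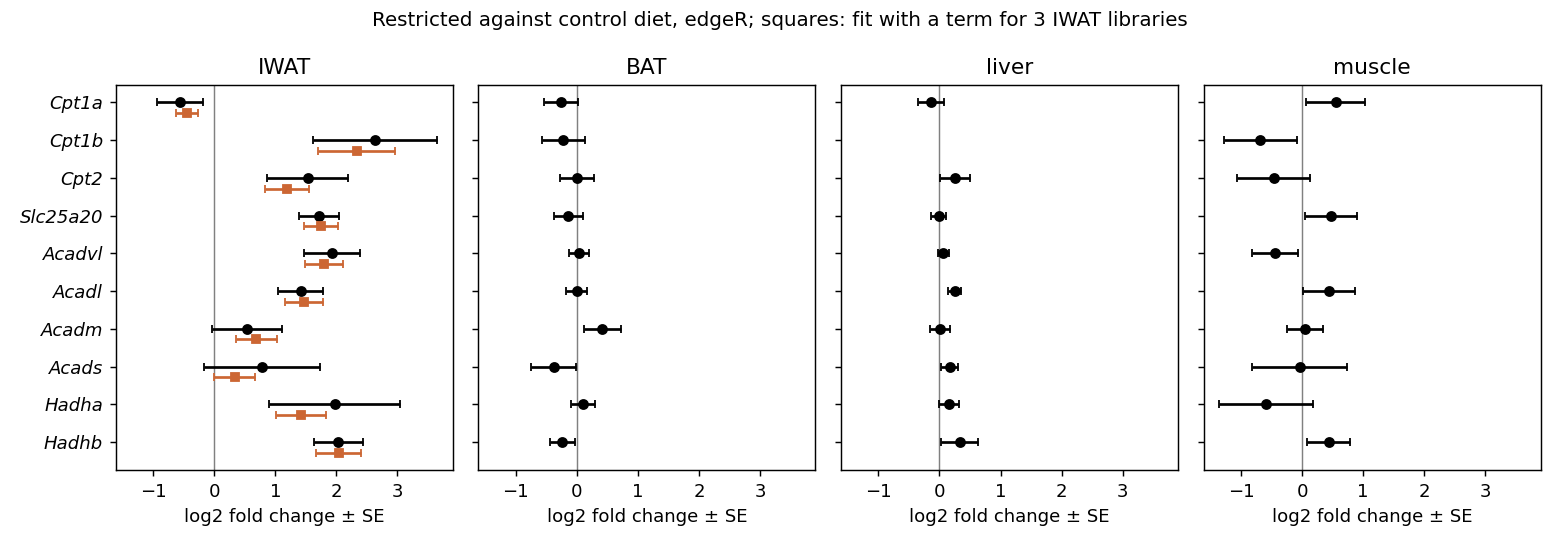
Fitted log2 fold change of each member under MR against CON in each tissue (points, ± SE from edgeR). Squares give the IWAT fit with a term for CON3106, CON3115 and MR3116. In IWAT, Slc25a20, Acadvl, Acadl and Hadhb lie between 1.42 and 2.04 in both fits, and in BAT all 10 lie between -0.38 and 0.42. Cpt1b was not tested in liver.

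The diet effect differed between the tissues for 3 of 10 members, where 0.524% of 13541 genes differed (tissue by diet interaction, edgeR, 47 libraries). These were Acadvl (adjusted p = 0.0111), Hadhb (0.0165) and Slc25a20 (0.0487). The effect on Hadhb was larger in IWAT than in BAT by log2 2.27 ± 0.44 (adjusted p = 0.0135, where 0.0517% of genes differed). That on Acadvl was larger in IWAT than in gastrocnemius by 2.43 ± 0.47 (0.00872, where 0.436% differed) and than in liver by 1.90 ± 0.45 (0.0308, where 0.591% differed). That on Slc25a20 was larger in IWAT than in liver by 1.75 ± 0.43 (0.0362). These contrasts share the IWAT libraries. The 2 calls between IWAT and liver were each lost without 9 of 12 animals (adjusted p up to 0.130 for Acadvl, which kept it without MR3101, CON3114 and MR3116, and up to 0.133 for Slc25a20, which kept it without MR3101, MR3104 and CON3114). With library-size scaling Acadvl was at 0.112, and with no filter at 0.0764 with Slc25a20 at 0.103. The call on Hadhb against BAT was lost without CON3103, MR3109, CON3112, CON3115 or MR3116 (up to 0.0934), and that on Acadvl against gastrocnemius without MR3101, MR3109 or CON3115 (up to 0.0802). In the test of pairs no member's effect differed between BAT, liver and gastrocnemius, where 0.103% (BAT and liver), 0 (BAT and gastrocnemius) and 0.0295% of genes did (liver and gastrocnemius). In the overall interaction Slc25a20 was lost without 9 of 12 animals (all but MR3101, MR3104 and CON3114, adjusted p up to 0.175), Acadvl without MR3109, CON3112 or CON3115 (up to 0.0928), and Hadhb without those or CON3107 (up to 0.131). Without the 4 libraries that stand apart the adjusted p was 0.00101 for Acadvl, 0.0143 for Hadhb, 0.0161 for Slc25a20 and 0.0303 for Hadha. With a fixed term for each animal as a replicate block, Acadvl alone passed (0.0149), with Hadhb at 0.0593 and Slc25a20 at 0.0774. The shares of all genes that passed in these alternative fits were not counted.

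Under MR, IWAT and BAT differed in 3 of 10 members (25.5% of genes): the log2 difference IWAT minus BAT was -0.95 ± 0.32 for Acadvl, -1.16 ± 0.38 for Acadm and 1.57 ± 0.36 for Cpt1a. For Slc25a20 it was -2.25 ± 0.31 under CON and -0.41 ± 0.30 under MR, and for Hadha -3.004 ± 0.76 and -1.11 ± 0.71. The change of this gap passed for Hadhb alone, with Slc25a20 and Acadvl at an adjusted p of 0.0726.

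The other genes of the pathway were read from lists beside the members. In IWAT all 18 tested of 19 further genes of mitochondrial fatty acid oxidation had positive log2 fold changes, with a median of 1.02. None passed the edgeR test, 7 were higher at an unadjusted p under 0.05, and 6 rose in the fit with a term for the 3 libraries. Over all IWAT genes 3.94% were higher at that unadjusted level and 2.84% were called higher with the term. Crat, the carnitine acetyltransferase, ran from 139 to 467 CPM in CON and from 506 to 834 in MR without overlap (log2 1.36 ± 0.30, adjusted p = 0.144), and Acaa2, a matrix thiolase, had a log2 difference of 1.52 ± 0.41 (0.176). Malonyl-CoA inhibits Cpt1, and of 9 genes around its supply 0 passed in IWAT (3 higher unadjusted, 2 called higher with the term). Mlycd, which removes malonyl-CoA, was at 1.63 ± 0.49 (0.237), and Acacb, which makes it at the mitochondrion, at 1.92 ± 1.25 (0.824).

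Of 14 transcription regulators tested in IWAT 0 passed (4 higher unadjusted, 2 called higher with the term). The shares of all IWAT genes were 3.94% and 2.84%, and 4.85% were lower unadjusted. The coactivator Ppargc1a averaged 9.86 ± 3.95 CPM in CON and 23.6 ± 7.36 in MR (SD, n = 6) without overlap (log2 1.25 ± 0.34, adjusted p = 0.177), its partner Esrra was at 1.44 ± 0.44 (0.246) and the fatty acid receptor Ppara at 1.35 ± 0.50 (0.383). Of 10 other targets of that receptor 0 passed (3 higher and 1 lower unadjusted, 2 called higher with the term), with Ehhadh of peroxisomal oxidation at 1.46 ± 0.35 (0.156) and the lipase inhibitor Angptl4 at -1.33 ± 0.37 (0.198). In the tricarboxylic acid cycle and respiratory chain all 30 genes tested were positive with a median of 1.14, 0 passed (15 higher unadjusted), and 14 rose with the term. The summed CPM of the members was 1149.6 to 3474 in CON and 3998 to 6759 in MR, and that of the cycle and chain genes 10396 to 24019 and 26111 to 56651, neither overlapping. The ratio of these sums ran from 0.0809 to 0.145 (median 0.110) in CON and from 0.0823 to 0.164 (median 0.154) in MR, which overlapped. The lowest MR ratio was that of MR3116, which stands apart.

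In BAT and liver some genes of the other lists changed while no member was called. Prkaa1, a catalytic subunit of the kinase that inactivates acetyl-CoA carboxylase, rose in BAT from 33.8 ± 5.81 to 62.0 ± 7.81 CPM (log2 0.86 ± 0.14, adjusted p = 0.0100), 1 of 9 genes of its list. No BAT gene passed among 18 further oxidation genes (1 lower unadjusted), 15 regulators (1 higher, 1 lower), 8 receptor targets (1 lower) or 30 cycle and chain genes (1 higher, 1 lower). Over all BAT genes 7.26% were higher and 6.33% lower unadjusted, and 0.575% were called higher and 0.537% lower. In liver Hsd17b10, a matrix dehydrogenase of branched substrates, fell from 208 ± 31.5 to 126 ± 11.8 CPM (log2 -0.70 ± 0.11, 0.00226), 1 of 18 further oxidation genes. Acacb fell from 35.8 ± 12.2 to 15.7 ± 5.74 CPM (log2 -1.17 ± 0.27, 0.0312), 1 of 9. Of 14 receptor targets 3 rose: the fatty acid omega-hydroxylase Cyp4a14 from 22.3 ± 8.21 to 163 ± 43.9 CPM (2.88 ± 0.24, 1.32e-05), the hormone Fgf21 (1.76 ± 0.35, 0.0132) and the thioesterase Acot1 (1.39 ± 0.33, 0.0401). Of the 14, 8 were positive and 6 negative, with 6 higher and 3 lower at an unadjusted p under 0.05. The summed CPM of this list had a median of 15136 in CON and 12701.5 in MR, and the diets overlapped. Over all liver genes 1.05% were called higher and 1.21% lower, and unadjusted 6.77% were higher and 7.76% lower. Ppara itself was at -0.45 ± 0.12 in liver (0.0650). In gastrocnemius 0 genes of these lists passed.

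**Figure D5:**
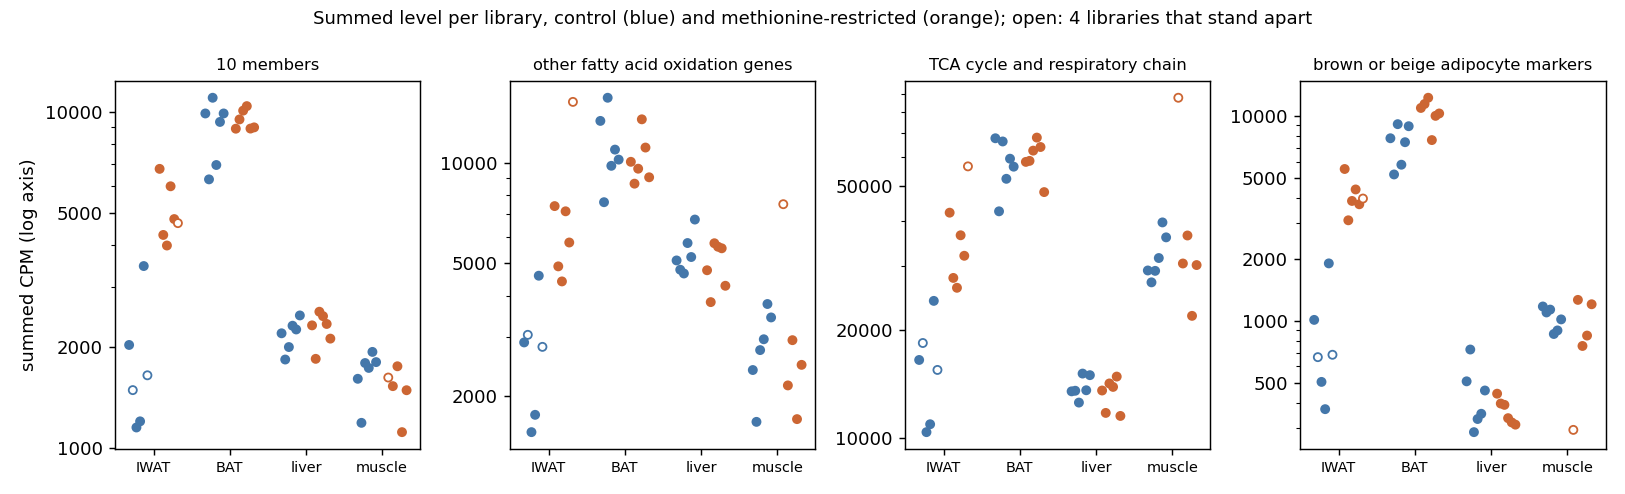
Summed CPM of 4 gene groups in every library by tissue and diet (blue CON, orange MR, open points the 4 libraries that stand apart; log axes that differ between panels). In IWAT the members, the tricarboxylic acid cycle and respiratory chain genes and the brown or beige markers do not overlap between the diets. A sum is led by genes with many tags.

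Markers of brown or beige adipocytes had higher fitted levels beside the members in IWAT. Of 12 tested 11 were positive and 11 were higher at an unadjusted p under 0.05 (3.94% of genes). Of these markers 0 passed, and 11 rose with the term (2.84% of genes). Their summed CPM ran from 371 to 1910.0 in CON and from 3099 to 5516 in MR without overlap, and 0 of 13 were at 0 in every library. Ucp1 ran from 17.6 to 434 CPM in CON and from 815 to 1929 in MR (log2 3.15 ± 0.64, adjusted p = 0.107). Other marker sums overlapped between the diets in IWAT: adipocyte 20972 to 90973 CPM in CON against 25718 to 73996 in MR, hepatocyte 246 to 8661 against 202 to 6263, muscle fibre 13.1 to 1971 against 19.7 to 476, lymphocyte 10.7 to 1874 against 15.2 to 1045, macrophage 128 to 371 against 75.5 to 233 and erythroid 0.646 to 16.7 against 0.557 to 14.4. The lymphocyte sum had a median of 20.9 CPM in CON and 450 in MR, and the muscle fibre sum 30.6 and 29.7. Within them, all 7 lymphocyte markers tested were positive, and all 5 muscle fibre and all 7 macrophage markers tested were negative. Over all IWAT genes 48.5% were positive. Of the macrophage markers, 2 had an unadjusted p under 0.05 (Emr1 at log2 -1.18 ± 0.34 and Mrc1 at -1.17 ± 0.37), where 4.85% of genes were lower. Of the lymphocyte and muscle fibre markers 0 did. With the term 1 macrophage and 1 adipocyte marker fell, where 2.75% of genes did. The part of any of these in the members' values was not tested. In BAT, where no member was called, 3 of 13 brown markers rose (Elovl3, Dio2 and Kcnk3), where 0.575% of genes were called higher. Of the 13, 10 were positive and 3 negative. Their summed CPM overlapped, at 5188 to 9129 in CON and 7634 to 12281.5 in MR. Ucp1 averaged 2551 ± 737 CPM in CON and 4666 ± 916 in MR (log2 0.86 ± 0.21, adjusted p = 0.0717). Macrophage marker sums in BAT did not overlap, at 42.3 to 131 CPM in CON and 22.6 to 40.9 in MR. Of 7 tested, 7 were negative, 5 of them at an unadjusted p under 0.05 (6.33% of genes), and 0 were called.

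Promoter windows of RefSeq on GRCm38.p6, 250 bases before to 50 after the start, were found for 9 of 10 members. They are shown because 4 members rose together in the IWAT fit with a term for 3 libraries, though 0 of 10 passed in the test without it. The Cpt1a window belongs to a start site inside the gene span given above. AGGTCA, a half-site of nuclear receptors, occurred on either strand in 3 of 9 windows (Cpt1a, Acadvl and Acadm), against 16.3% of 32851 windows. Of the 4 members that rose in that fit, Acadvl had a match and Slc25a20, Acadl and Hadhb had none. The Acadvl window (chr11:70015379-70015678, minus strand) holds the letters in capitals, and the Hadhb window (chr5:30155003-30155302, plus strand), which overlaps that of Hadha, holds none.
Acadvl: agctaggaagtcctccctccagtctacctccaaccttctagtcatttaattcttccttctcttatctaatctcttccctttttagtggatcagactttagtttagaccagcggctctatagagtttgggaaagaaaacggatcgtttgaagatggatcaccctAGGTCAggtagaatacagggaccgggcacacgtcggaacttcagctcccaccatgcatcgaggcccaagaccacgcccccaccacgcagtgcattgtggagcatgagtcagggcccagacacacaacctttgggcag
Hadhb: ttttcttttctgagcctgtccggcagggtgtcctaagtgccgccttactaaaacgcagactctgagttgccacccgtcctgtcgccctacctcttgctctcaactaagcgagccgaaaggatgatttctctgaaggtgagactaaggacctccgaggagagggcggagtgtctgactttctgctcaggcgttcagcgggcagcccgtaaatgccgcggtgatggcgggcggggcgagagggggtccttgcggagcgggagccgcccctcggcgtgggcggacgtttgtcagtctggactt
A match describes letters only, and no binding was measured.

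Over the 8 group means, which come from the same 12 animals, the members' mean profile was tracked most closely by Acadvl (Pearson r = 0.995), Slc25a20 (0.978) and Cpt2 (0.977) among the members, and least by Cpt1a (-0.31) and Cpt1b (0.53). Acadl and Hadhb were the most alike pair (r = 0.997) and Cpt1a and Cpt1b the most opposed (-0.93). Outside the members the closest profiles included those of Poldip2 (0.993), Ndufab1 (0.988), X99384 (0.987), Pigq (0.985) and Atpaf2 (0.984). Ndufab1 is the mitochondrial acyl carrier protein and Atpaf2 an assembly factor of ATP synthase. These correlations are descriptions over 8 means. The mean profile contains each member itself, which raises the members' r, so members and outside genes are not compared.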

How the data were processed

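Short 3′ tags (SOLiD SAGE) were counted in 47 libraries, with 7 to 12 ng of total RNA as input, and assigned to mouse RefSeq genes by unique mapping, per the labels' protocols. The submitters' processing notes name the builds mm10 and GRCm38.p1 and the tool DESeq, while aligner and counter were not given in the sources used here. Raw counts per gene were deposited by the authors, which entered every main test. They also deposited a normalized signal, each count divided by 1 size factor per library, which was used in 1 alternative.

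In R 4.3.3, each tissue was tested by edgeR 4.0.16 (TMM factors, filterByExpr at a minimum count of 10, quasi-likelihood F test, Benjamini-Hochberg adjustment over all genes, threshold 0.05). Tissue differences and tissue by diet interactions came from 1 fit of 47 libraries over 13541 genes, without a term for the animal. The SE was taken from the fold change and its F statistic (absolute log2 value over root F), and log2 CPM uses a prior count of 2. The method was tested on simulated data. Alternatives used DESeq2 1.42.0, limma 3.58.1, other factors and filters, libraries left out and animal blocks.

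The 10 members are always named. From other lists up to 4 genes past the threshold per tissue are named by smallest p, or 2 where none passed, with Ppara, Ppargc1a, Acaca, Acacb and Ucp1 allowed anywhere. The genes of most similar profile were taken by Pearson r over the group means, and 1 of them is not reported here. The members and lists were chosen with earlier results of these data known. Libraries of the same number come from the same mouse, so they are paired by animal. The mean correlation of their deviations was -0.08 to 0.06 over the 6 tissue pairs, against -0.01 to 0.06 for libraries of different animals. Each library is 1 mouse, and depth ran from 4887004 to 13117537 tags.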

Additional observations from a re-analysis of the deposited data

Results flagged for a closer look

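Within groups of 5 or 6 libraries, 10 of 80 member by group sets held a library far from the rest. The rule flags about 1 in 20 independent sets, but these sets share libraries, so the count cannot be judged by that rate. Of these, 6 were IWAT MR3116: Cpt1a at 88.7 CPM (next library 40.3), Acadm at 1702 (502), Cpt1b at 0 (2.39), Cpt2 at 65.1 (319.8), Acads at 1.67 (54.4) and Hadha at 14.5 (1147). In gastrocnemius MR3101, Cpt2 was at 4.58 CPM (next 61.0) and Hadha at 1.87 (276). In BAT MR3109, Slc25a20 was at 270.0 CPM (next 547). In liver CON3114, Cpt1b was at 0.126 CPM, which is 1 tag, with the other CON libraries at 0, a set in which the rule flags any single tag.

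The diet effect differed between tissues for Slc25a20 (adjusted p = 0.0487, edgeR interaction), Acadvl (0.0111) and Hadhb (0.0165).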

How the results depend on the processing

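The count of IWAT genes that passed was 3, and it was 310 with DESeq2, 7 with limma voom, 6 with upper-quartile factors, 6 at a minimum count of 50, 12 with limma on the authors' normalized values, 446 in the fit of all libraries, 0 without CON3106, CON3115 and MR3116, 620 with a term for them, and 0 to 41 leaving out 1 library. IWAT members that passed went from 0 to 4 with DESeq2, 5 in the fit of all libraries and 4 with the term, and to 0 to 3 leaving out 1 library. BAT genes went from 120 to 317 with DESeq2 and 41 in the fit of all libraries (50 to 111 leaving out 1 library), liver genes from 248 to 490 and 29 (158 to 322), and gastrocnemius genes from 0 to 2 with DESeq2. In every one of these settings 0 members passed in BAT, liver and gastrocnemius. The cause was not tested.

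Signs turned only for differences that passed no test. In BAT these were Cpt2 (-0.066 with voom, -0.0017 with upper-quartile factors, -0.010 at a minimum count of 50, -0.062 on the authors' values) and Acadl (0.017 with no filter, 0.0067 on the authors' values, 0.014 in the fit of all libraries). Acadm was at -0.00086 in liver in the fit of all libraries and at -9.07e-05 in gastrocnemius with voom. Leaving out 1 library, BAT Acadl ran from -0.073 to 0.082, Acadvl from -0.038 to 0.10, Cpt2 from -0.24 to 0.15, Slc25a20 from -0.25 to 0.0098 and Hadha from -0.058 to 0.19, and IWAT Acadm from -0.19 to 0.89. Liver Acadm ran from -0.060 to 0.14 and Slc25a20 from -0.066 to 0.064. Gastrocnemius Cpt1a ran from -0.031 to 0.77, Slc25a20 from -0.11 to 0.68, Acadl from -0.089 to 0.62, Acadm from -0.087 to 0.19 and Acads from -0.66 to 0.28.

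Of 3 members with an interaction, 1 passed with a fixed replicate block for each animal, 3 with voom and the animal as replicate block, and 0 to 3 leaving out 1 animal (0 without MR3109, CON3112 or CON3115). The share of all genes with an interaction was counted for the main fit alone (0.524%), so these counts have no share to be set against. Slc25a20 was at an adjusted p of 0.0668 with RLE factors and 0.122 with no filter. With the voom block, control differences of Cpt1b and Hadhb between IWAT and liver (adjusted p 0.0900 and 0.0540) and of Hadha between BAT and gastrocnemius (0.0545) no longer passed. Depth limited Cpt1b, with 0 to 47 tags in IWAT.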
